A study of Mus musculus with 4 samples.

Results

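The replication-dependent histone genes encode the H1, H2A, H2B, H3 and H4 proteins that package newly copied DNA. Members were the genes whose array name starts with Hist1h, Hist2h, Hist3h or Hist4h and that had at least 3 probes with input signal well above background on all 4 arrays. This rule found 49 of the 62 histone genes named on the array, against 17034 genes of any kind with such probes. The 49 comprised 6 H1, 8 H2A, 14 H2B, 9 H3 and 12 H4 genes, with 3 to 31 probes each and 496 probes in all. The other 13 genes are not described: Hist1h2ad, Hist1h2ae, Hist1h2ag, Hist1h2ai, Hist1h2ak, Hist1h2an and Hist2h2ac had no such probe, Hist1h2bb and Hist1h2bf had 1, and Hist1h2bg, Hist1h3a, Hist1h3b and Hist1h3h had 2.

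Methylated DNA was enriched by immunoprecipitation (MeDIP) from cultured mouse cells of a series on MLL5 and decitabine in acute myeloid leukaemia, and each MeDIP sample (Cy3) was hybridised against its own input DNA (Cy5) on a 2-colour promoter array. There were 4 groups with 1 array each: wild type (WT) cells left untreated, knockout (KO) cells left untreated, WT cells given decitabine and KO cells given decitabine. Decitabine is a nucleoside drug that, once built into DNA, depletes the enzymes that methylate it. It was given at 20 nM every 24 h for 3 days, and cells were harvested at 72 h. All groups grew in the same medium with interleukin-6, interleukin-3 and stem cell factor. The labels disagree on the knockout: the genotype field names HOXA9, while the source names of the same samples name Mll5, so the groups are called WT and KO only. The cell line is given as MII5 for every group, the sources do not say if the 4 DNA samples are from separate cultures, and the methylation of a gene cannot check a knockout label. With 1 array per group no difference has a replicate check and no test was made. The 4 arrays were on 4 slides, which leaves slide and group impossible to separate: they cannot be told apart. No dyes were swapped.

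Replication-dependent histone genes are expressed in S phase. They have no introns as a rule, and their messages end in a stem-loop bound by SLBP instead of a poly(A) tail. Many copies stand close together in a few clusters, and H2A and H2B genes often lie head to head and share a promoter between them. A few members, among them Hist1h1t, Hist1h2aa and Hist1h2ba, are made mainly in testis. The promoters of the S-phase copies are active in dividing cells, where CpG-rich active promoters generally lack DNA methylation.

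On the mm9 genome, 37 members lay in the Hist1 cluster on chromosome 13, with probes from 21803348 to 24031423. The Hist2 cluster on chromosome 3 held 8 members (96020927 to 96073665), the Hist3 cluster on chromosome 11 held 3 (58752511 to 58770062), and Hist4h4 stood alone on chromosome 6 (136751395 to 136754612). Of the 496 probes, 374 were intergenic in the GENCODE annotation, 52 touched an untranslated region, 31 a coding exon, 29 an intron and 10 a non-coding exon. The probes therefore report mainly on the flanks of these short genes, and 30 lay in an annotated gene other than the gene they are assigned to, 6 of them in another histone gene. None of the 1072 histone probes on the array had a second exact place in the genome, and 7 of the 496 had another place of at least 85% identity.

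The promoters share sequence features that the rule did not use. RefSeq windows of 300 bases on GRCm38.p6, from 250 before to 50 after the gene start, were found for 44 of the 49 members. A CCAAT box (CCAAT, either strand) was in 36 of the 44 (81.8%), against 41.1% of 27025 genes with a window. Counts are of genes, and a gene with several windows was counted if any of them held the motif. The CCAAT box was found for each of the 6 H1, 8 H2A, 11 H2B and 8 H3 genes with a window and for 3 of 11 H4 genes. A TATA box (TATAAA, either strand) was in 24 of 44 (54.5%), against 15.7% of all genes. The octamer ATTTGCAT is the site of the POU-domain factor Oct-1 in H2B promoters. It was found for 5 of 8 H2A and 5 of 11 H2B genes and for no other member with a window, against 1.97% of all genes. Windows of 2 head-to-head H2A and H2B pairs overlapped (Hist1h2aa with Hist1h2ba, and Hist1h2ah with Hist1h2bk), so part of these matches are the same letters. A match is a description of the letters only.

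Array probes just upstream of a gene start show these elements on the array itself. Capitals mark the motif letters in the lines below, which give the forward strand of mm9; Hist1h1a, Hist1h4d, Hist1h2aa and Hist2h2bb all lie on that strand.
Hist1h1a, chr13:23855470-23855521: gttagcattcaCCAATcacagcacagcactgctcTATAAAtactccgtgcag
Hist1h4d, chr13:23673380-23673427: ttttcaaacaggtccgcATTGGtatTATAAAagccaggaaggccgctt
Hist1h2aa, chr13:24026179-24026238: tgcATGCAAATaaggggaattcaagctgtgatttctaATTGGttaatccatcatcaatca
Hist2h2bb, chr3:96073542-96073601: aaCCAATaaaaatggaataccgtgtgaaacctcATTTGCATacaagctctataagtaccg
The linker histone probe (Hist1h1a) and the H4 probe (Hist1h4d) pair a CCAAT box with a TATA box. The H2A and H2B probes (Hist1h2aa, Hist2h2bb) pair a CCAAT box with the octamer.

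Most histone probes carried no MeDIP signal that the scanner software called well above background. On the untreated arrays 4 of 496 probes did so in WT cells (0.806%, 95% exact binomial interval 0.22 to 2.05%) and 6 in KO cells (1.21%, 0.445 to 2.61%). On the decitabine arrays 31 did so in WT cells (6.25%, 4.29 to 8.75%) and 55 in KO cells (11.1%, 8.46 to 14.2%). Over all 327812 probes kept with a gene name the shares were 4.08%, 4.08%, 14.2% and 16.1% in the same order of arrays. The histone share was thus below the share of all probes on each of the 4 arrays, and in both genotypes it was higher on the decitabine array. The weakest signal that passed was lower there too: 1414 (WT) and 1250 (KO) untreated against 1035 and 850 with decitabine. With 1414 as the limit on every array, 8 histone probes passed on each untreated array (1.61%) and 19 on each decitabine array (3.83%), against 5.33%, 4.80%, 9.30% and 10.1% of all probes. The counts of KO and WT cells were then the same within each treatment. Intervals cover counting error only, and neighbouring probes can report on the same fragments.

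**Figure D1:**
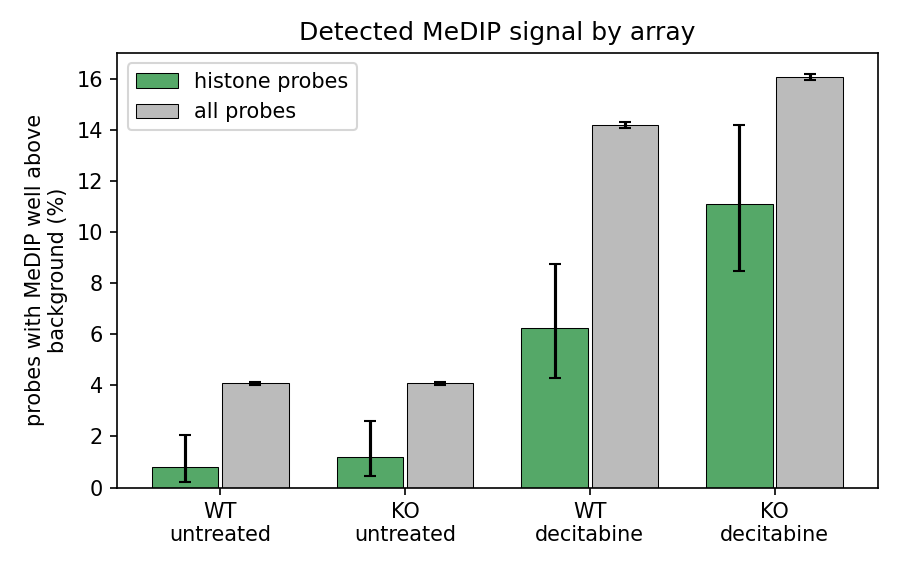
Share of probes (percent, vertical axis) whose MeDIP signal was well above background on each array, for the 496 histone probes and all 327812 probes, with 95% exact binomial intervals. The histone bars sit at 0.806% and 1.21% on the untreated arrays and at 6.25% and 11.1% on the decitabine arrays, below the bars of all probes each time.

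In 437 of the 496 probes MeDIP was not well above background on any array, and 21 of the 49 genes had no such probe anywhere. For the dimmest of these signals the software puts a surrogate value in place of the signal. Surrogates made up 62.3%, 61.7%, 46.4% and 42.3% of the histone MeDIP values (untreated WT and KO, then decitabine WT and KO), against 60.8%, 58.9%, 38.7% and 37.6% over all probes. The ratio of a surrogate probe moves mainly with its input channel. No fold is given for a gene unless at least 1 probe had MeDIP well above background on each array compared, and its log2 ratios are printed as measured. At the gene level no "at least" fold came out above 1.

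MeDIP was well above background on all 4 arrays at 2 histone probes, shown here because they are the only ones measured above background throughout. Capitals mark CpG dinucleotides, the positions that can be methylated.
Hist1h3e, chr13:23656282-23656326: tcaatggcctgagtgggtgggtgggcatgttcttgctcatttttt
Hist1h3c, chr13:23836041-23836085: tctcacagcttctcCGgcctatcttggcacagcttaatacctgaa
Both are intergenic, the first centred at -2066 bases from the start of Hist1h3e and the second at 1408 bases from the start of Hist1h3c (negative is upstream). The Hist1h3e probe holds no CpG and has 3 in the 500 bases around it. Its processed MeDIP signal was 2854 in WT untreated, 3964 in KO untreated, 7394 in WT decitabine and 8939 in KO decitabine cells, and its centred log2 ratios were -2.26, -1.28, -0.51 and 0.36. The ratio was higher by 1.76 with decitabine in WT cells and by 1.64 in KO cells. The Hist1h3c probe had log2 ratios of -0.11, -0.76, -0.25 and -0.11 in the same order, with no common direction between the genotypes on decitabine.

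Of the 66 histone probes with 20 or more CpGs in 500 bases, MeDIP was detected at 0.00%, 0.00%, 9.09% and 9.09% on the 4 arrays, and of the 206 with under 5 CpGs at 1.94%, 0.971%, 5.34% and 10.7%. Over all probes the shares were 4.09%, 5.05%, 17.8% and 19.1% with 20 or more CpGs, and 3.37%, 2.78%, 8.64% and 9.97% with under 5. The following 4 are among the most CpG-rich probes outside untranslated regions with no MeDIP signal well above background on any array (others also hold 3), and are examples chosen for having no detected signal, from DNA that the method enriches where it is methylated. Capitals again mark CpG.
Hist2h2be, chr3:96025351-96025395: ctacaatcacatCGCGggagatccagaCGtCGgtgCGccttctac
Hist1h2be, chr13:23713148-23713207: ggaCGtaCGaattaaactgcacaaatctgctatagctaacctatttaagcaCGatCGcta
Hist1h2be, chr13:23714277-23714321: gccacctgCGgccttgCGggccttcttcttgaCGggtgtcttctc
Hist1h2bj, chr13:22142823-22142867: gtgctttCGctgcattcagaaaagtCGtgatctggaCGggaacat
They hold 5, 4, 3 and 3 CpGs. The first lies in the coding exon of Hist2h2be, and the third, although assigned to Hist1h2be, lies in the coding exon of its neighbour Hist1h1e. Untreated, the Hist2h2be probe had MeDIP signals of 269 (WT) and 771 (KO), and with decitabine 204 (WT) and 574 (KO). All 4 values are under the weakest passing signals given above.

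A gene's level is the mean log2 ratio of MeDIP over input of its probes, relative to the median of all probes of the array. The median histone gene stood at -0.38 (SD over genes 0.40) in WT untreated cells, -0.50 (0.31) in KO untreated, -0.13 (0.30) in WT decitabine and -0.48 (0.36) in KO decitabine, n = 49 genes on 1 array each. The medians over all 17034 genes were -0.71, -0.63, -0.47 and -0.46. Histone genes were therefore above the all-gene median on the WT arrays (42 of 49 genes on each), less so on the KO untreated array (32 of 49) and at it on the KO decitabine array (24 of 49). Their surroundings are poorer in GC (median 42.8% in 500 bases, against 49.4% over all genes) and in CpG (8.7 against 11.8). With the array median at each GC content subtracted, the histone median differed from that of all genes by -0.01, -0.10, 0.14 and -0.07 on the 4 arrays.

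**Figure D2:**
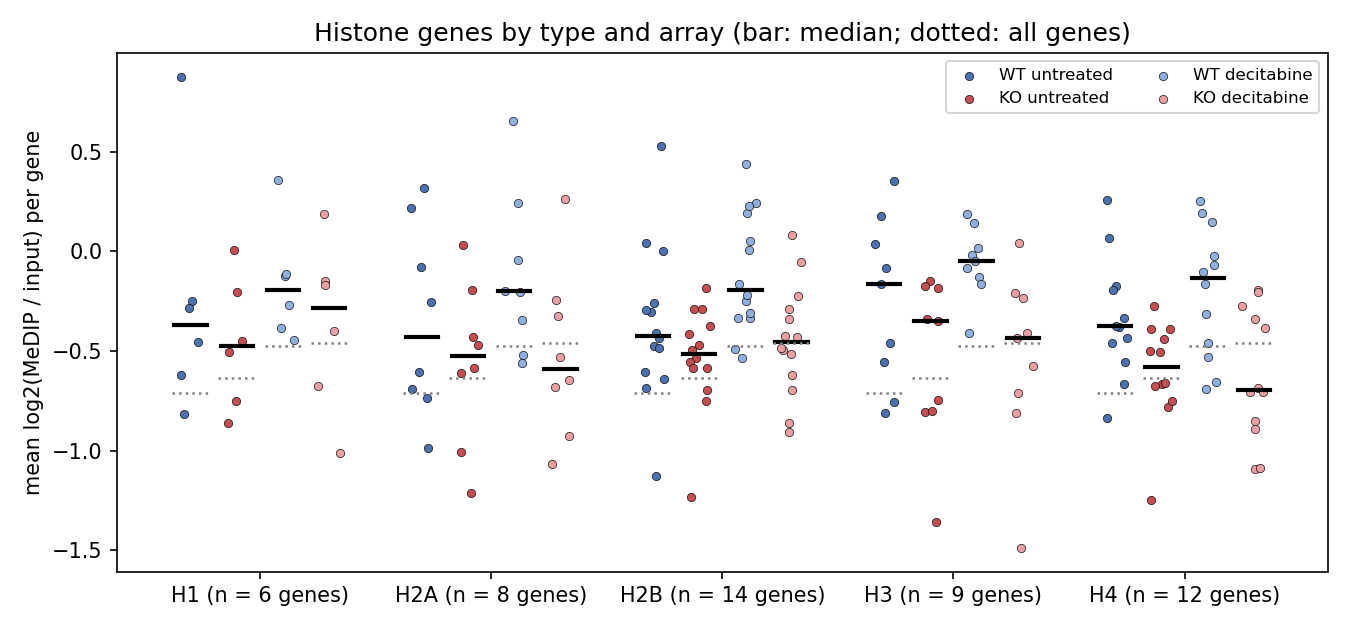
Mean log2(MeDIP/input) per histone gene (vertical axis) by histone type and array; points are genes, black bars medians over genes, dotted lines the median of all 17034 genes on that array. The types overlap on every array, and every type median lies lower on the KO decitabine array than on the WT decitabine array. The KO medians are -0.28 (H1), -0.59 (H2A), -0.46 (H2B), -0.44 (H3) and -0.70 (H4). The WT medians are -0.20, -0.20, -0.19, -0.05 and -0.13 in the same order.

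By type, the medians on the WT untreated array ran from -0.43 (H2A) to -0.17 (H3). On KO untreated they ran from -0.58 (H4) to -0.35 (H3), on WT decitabine from -0.20 (H2A) to -0.05 (H3), and on KO decitabine from -0.70 (H4) to -0.28 (H1). The SD over genes within a type was 0.18 to 0.59, and the span between types exceeded the SD of H4 (0.33) on the KO decitabine array only, so the order of types is mostly not resolved. By cluster, the WT untreated medians were -0.29 for Hist1, -0.53 for Hist2 and -0.69 for Hist3, with SDs of 0.39, 0.43 and 0.27. On KO decitabine the order was reversed (-0.50, -0.39 and -0.29).

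The gene with the highest mean over the arrays was Hist1h2ah, an H2A gene, with log2 ratios of 0.22, 0.03, 0.66 and 0.26 (untreated WT and KO, then decitabine WT and KO; SD over its 10 probes 0.90, 0.73, 0.92 and 0.87). It had 3 and 4 probes with detected MeDIP on the decitabine arrays and none on the untreated arrays. Hist1h1e, a somatic linker histone, was at 0.88, 0.01, 0.36 and -0.15 over 7 probes with no detected MeDIP on any array. Hist1h3f (0.04, -0.35, 0.19, 0.04), Hist1h4m (0.26, -0.39, 0.25, -0.20) and Hist1h3i (0.35, -0.15, 0.14, -0.58) completed the top 5. The kept probes of Hist1h4m (chr13:21920466-21922784) all lie well outside the gene, which GENCODE places at chr13:21903615-21904016. In each of the top 5 genes the KO array was below the WT array of the same treatment.

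The lowest mean belonged to Hist1h2af, an H2A gene, at -0.99, -1.21, -0.56 and -1.07 over 5 probes. Hist1h4a (-0.46, -1.25, -0.69, -1.09), Hist1h4f (-0.84, -0.75, -0.16, -1.09), Hist1h3d (0.18, -1.36, -0.13, -1.49) and Hist2h3c2 (-0.76, -0.80, -0.41, -0.71) followed. None of these 5 had detected MeDIP on any array, so their order is an order of input signals as much as of methylated DNA. The SD over the probes of a gene had a median of 0.71 to 0.93 per array, larger than most differences between genes.

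The testis histones stood close to the others. Hist1h1t, the testis linker histone, was at -0.28, -0.20, -0.11 and -0.17 over 19 probes, the H2A gene Hist1h2aa at -0.25, -0.19, -0.34 and -0.65 over 6, and the H2B gene Hist1h2ba at -0.47, -0.29, 0.24 and 0.08 over 11. The median of the 3 exceeded that of the other 46 by 0.11 in WT untreated, 0.32 in KO untreated, 0.03 in WT decitabine and 0.32 in KO decitabine cells, which is below the SD of the other 46 genes on the WT arrays and near it on the KO arrays (0.42, 0.31, 0.30 and 0.36). On both WT arrays the sign of this difference turned under loess normalization (-0.17 on each) and without the filter on input (-0.22 untreated and -0.02 with decitabine). On the WT decitabine array it also turned with the scanner's own log ratio (-0.10) and under normexp background correction (-0.01). Hist1h2ba had 2 of 11 probes with detected MeDIP on each decitabine array and none on the untreated arrays.

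Across the 49 genes the level had little relation to the CpGs per probe on the WT untreated array (Pearson r 0.09, Spearman rho 0.02) and a weak negative one on KO untreated (-0.38, -0.18), WT decitabine (-0.13, -0.19) and KO decitabine (-0.28, -0.19). Over all genes r was -0.45, -0.39, -0.33 and -0.02. With the CpGs in the surrounding 500 bases the relation over the 49 genes was stronger on the KO arrays. Pearson r was then 0.02, -0.57, -0.28 and -0.41 (untreated WT and KO, then decitabine WT and KO), and Spearman rho -0.09, -0.38, -0.31 and -0.29. Over all genes that r was -0.55, -0.47, -0.40 and -0.05. Genes share their array and their base composition here, and these values are descriptions.

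Decitabine was compared with no treatment within each genotype. In WT cells the median histone gene was 0.15 higher on the decitabine array (SD over genes 0.35), with 33 of 49 above 0, against 0.25 over all genes. In KO cells it was 0.07 higher (SD 0.27), with 27 of 49 above 0, against 0.21. The sizes depend on the centring: with arrays centred on probes with MeDIP well above background throughout, the histone medians were -0.46 in WT and -0.80 in KO cells, and those of all genes -0.35 and -0.66. They also turned below 0 under loess (-0.02 and -0.15, all genes -0.09 and -0.10). Relative to all genes the histone medians were -0.10 and -0.14 with either centring, which must be so because centring shifts all genes of an array alike. Under loess the histone medians were 0.07 (WT) and -0.04 (KO) relative to all genes, and without the input filter 0.05 and -0.11. Once GC content was corrected they were 0.08 and 0.03 above all genes.

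A gene was counted when it differed 2-fold or more and 80% or more of its probes moved the same way, a limit of size and not a test. No histone gene was counted for decitabine in either genotype. The background of this count was 1.07% of all genes higher and 0.0117% lower in WT cells, and 0.757% higher and 0.00587% lower in KO cells. Of the 49 genes, 23 were higher with decitabine in both genotypes, 12 lower in both and 14 of opposite sign.

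The largest differences in WT cells were those of Hist1h2bp (0.91, SD over 8 probes 1.44), Hist3h2bb (0.79, SD 1.22 over 6), Hist1h3g (0.76, SD 0.70 over 8) and Hist1h2bh (0.73, SD 0.28 over 4). Hist1h3g, an H3 gene, was the only one of the 4 with a probe detected on both arrays, and its log2 ratios were -0.81 untreated and -0.05 with decitabine in WT cells, but -0.81 on both KO arrays. In KO cells Hist1h1b, a linker histone, differed most (0.69, SD 1.38 over 9 probes), followed by Hist3h2ba (0.41, SD 0.78 over 31), Hist1h3f (0.39) and Hist2h2bb (0.38). Except for Hist1h3g and Hist1h2bh, these differences were within the SD over the gene's own probes.

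The lowest values with decitabine were those of Hist2h2bb (-0.52), Hist1h1e (-0.52), Hist4h4 (-0.32) and Hist1h3d (-0.31) in WT cells. In KO cells they were those of Hist2h2ab (-0.49), Hist1h2aa (-0.45), Hist1h2bh (-0.44) and Hist1h3i (-0.43). None of these 8 had a probe with MeDIP detected on both arrays compared, so no fold is given. Hist2h2bb and Hist1h2bh are on both sides, lower in one genotype and higher in the other.

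At some probes MeDIP was well above background on both decitabine arrays and on neither untreated array. There were 20 such histone probes (4.03%) of 12 genes, against 6.86% of all probes. The opposite pattern was seen at no histone probe, and at 6 of all 327812. Of the 20 probes, 3 lay within 500 bases of the gene start and 9 more than 2000 bases away, and 10 held a CpG. The lower limit of the decitabine arrays enters this pattern: at 12 of the 20 the untreated signal in at least 1 genotype was above the weakest that passed on the decitabine array, and at 3 the signal was not higher with decitabine in at least 1 genotype. Since the probes were chosen by this pattern, their direction is set by the choice. An "at least" fold sets the untreated signal to the weakest that passed on its array, and by the smaller of the WT and KO folds the first 2 probes were those below, both in the Hist3 cluster.
Hist3h2bb, chr11:58767260-58767304: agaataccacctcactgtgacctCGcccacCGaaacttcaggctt
Hist3h2ba, chr11:58752511-58752555: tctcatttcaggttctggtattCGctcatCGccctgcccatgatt
Each holds 2 CpGs, in capitals, with 20 and 38 CpGs in the 500 bases around them. The Hist3h2bb probe had MeDIP signals of 1254, 1409, 3345 and 2585 in the order of the arrays given above. Its centred ratio of MeDIP over input was at least 2.89-fold higher with decitabine in WT cells and at least 2.9-fold in KO cells. The Hist3h2ba probe, at -9880 bases from its gene start, had MeDIP signals of 305, 630, 1589 and 1519. Its centred ratio was at least 1.99-fold and 2.12-fold higher. These folds rest on 1 probe and 1 array per group each, and were chosen after their values were seen. They also hold for the centring used only. Centring on probes with MeDIP well above background throughout moves decitabine differences by -0.60 in WT and -0.87 in KO cells (log2), which lowers these limits.

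The Hist3 and Hist4 members bracket the clusters. All 3 Hist3 genes were higher with decitabine in both genotypes: Hist3h2a by 0.50 and 0.33 (WT, KO), Hist3h2ba by 0.42 and 0.41, and Hist3h2bb by 0.79 and 0.30, the last 2 encoding H2B and the first H2A. Hist3h2ba had detected MeDIP at 0, 1, 4 and 6 of its 31 probes on the 4 arrays. The 6 on the KO decitabine array were the most of any member, but it also had the most probes. By share it was not the highest there, since Hist1h2ah had 4 of 10. Hist4h4, the only H4 gene of its locus, was lower in both (-0.32 and -0.19), with 1 of 11 probes detected, on the KO decitabine array.

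KO and WT cells were compared within each treatment. Without treatment the median histone gene was at -0.13 in KO minus WT (SD over genes 0.43), with 15 of 49 above 0, against 0.08 over all genes. The untreated median turned to 0.14 under normexp (all genes 0.27), 0.06 with the scanner's log ratio (all genes 0.28) and 0.21 for the 6 members with 3 probes detected on at least 1 array (all genes 0.38). With decitabine the median was -0.40 (SD 0.31), with 3 of 49 above 0, against 0.03 over all genes. Under normexp it was -0.12, against 0.12. In all, 34 of 49 members (69.4%) were lower in KO cells in both comparisons, which share no array, against 24.9% of all genes. The share over all genes is not matched for GC content. Members higher in KO cells in both were Hist1h1b (0.31 and 0.31), Hist3h2ba (0.17 and 0.16) and Hist3h2bb (0.54 and 0.05). Their signs were not stable: in at least 1 of these comparisons each turned negative under an alternative setting.

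**Figure D3:**
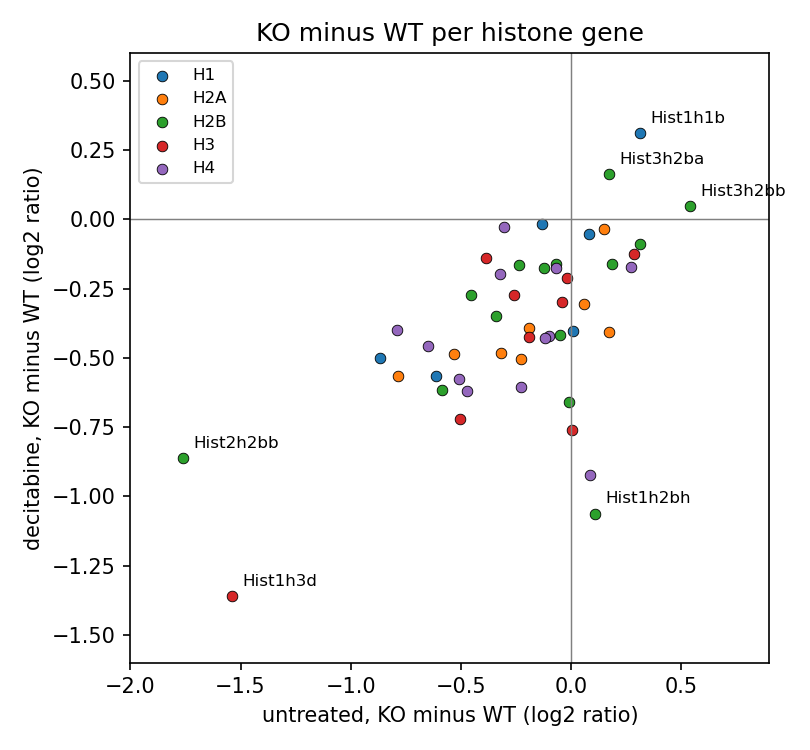
KO minus WT difference of the mean log2 ratio per histone gene, untreated (horizontal axis) against decitabine (vertical axis), coloured by histone type. Of the 49 points 34 lie below 0 on both axes, and Hist1h3d (-1.54 and -1.36) and Hist2h2bb (-1.76 and -0.86) lie farthest out.

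With decitabine the median was below 0 in every type: -0.23 for H1 (1 of 6 genes above 0), -0.44 for H2A (0 of 8), -0.22 for H2B (2 of 14), -0.30 for H3 (0 of 9) and -0.43 for H4 (0 of 12). Without treatment the medians were -0.06, -0.21, -0.06, -0.19 and -0.27 in the same order. By cluster, the decitabine medians were -0.42 for Hist1 (1 of 37 above 0), -0.20 for Hist2 (0 of 8) and 0.05 for Hist3 (2 of 3), and Hist4h4 was at -0.20. Within Hist1, which falls into 3 blocks separated by long gaps, the blocks stood at -0.18 (9 genes), -0.41 (4 genes) and -0.46 (24 genes) with decitabine and at -0.12, -0.15 and -0.21 without. The pattern was thus spread over the Hist1 blocks and the histone types. Across the 49 genes the untreated and decitabine differences had Pearson r 0.58 and Spearman rho 0.50, against 0.49 and 0.47 over all genes.

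The 2 channels were then compared on their own. Input signal of the median histone gene was 0.20 higher in KO than WT untreated (40 of 49 genes above 0) and 0.36 higher with decitabine (46 of 49), whereas over all genes it was -0.05 and -0.09. The MeDIP channel of the same genes differed by 0.00 and 0.06, against 0.01 and 0.01 over all genes. Input was higher in KO cells in both comparisons for 39 of 49 members (79.6%), against 26.1% of all genes. Over the 49 genes the ratio and input differences of the same arrays had r -0.89 untreated and -0.77 with decitabine, which is in part built in, since the input is the ratio's denominator.

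**Figure D4:**
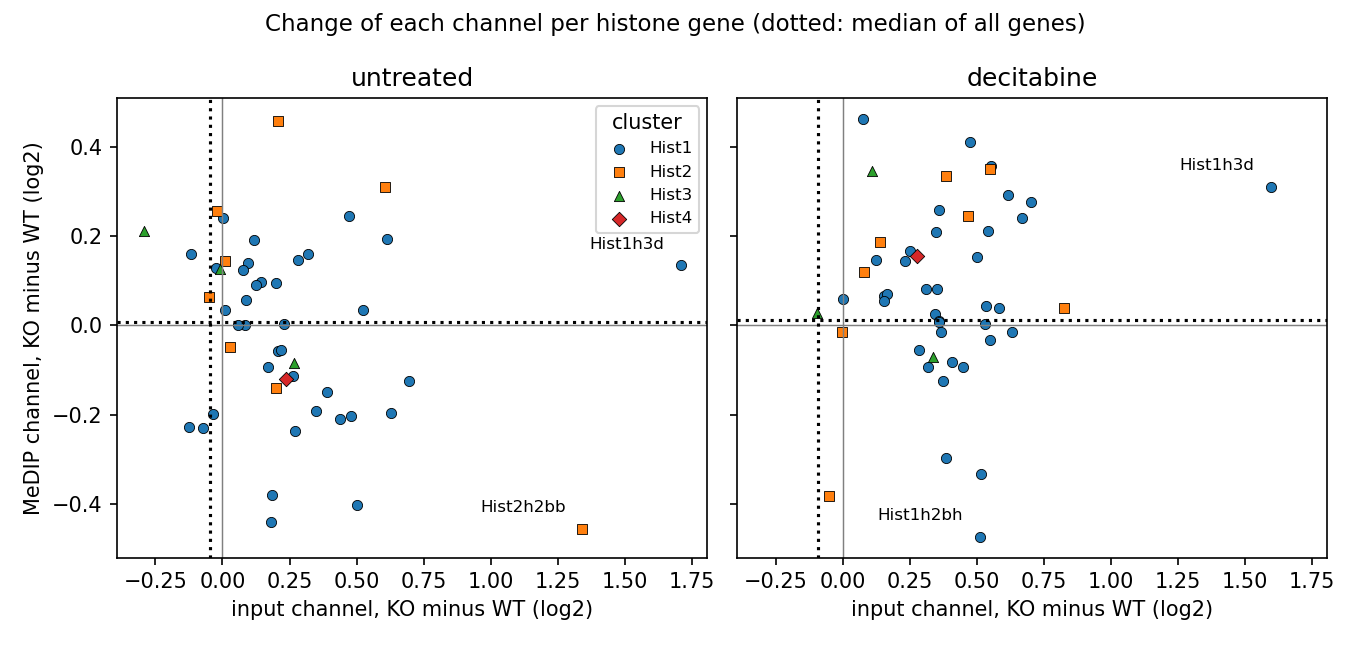
KO minus WT difference per histone gene of the input channel (horizontal axis, log2) and the MeDIP channel (vertical axis, log2), untreated (left) and with decitabine (right); symbols give the cluster and dotted lines the medians of all genes. The points spread to the right of the dotted vertical line (histone medians 0.20 and 0.36) and lie around the dotted horizontal line (0.00 and 0.06).

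The input difference also moved with base composition over the array. Across 17031 genes it had r -0.56 (untreated) and -0.74 (decitabine) with the GC content of the surrounding 500 bases, and across the 49 histone genes 0.01 and -0.13. Correcting each array for GC content left histone medians of -0.06 untreated and -0.26 with decitabine, against 0.00 and 0.01 for all genes. With this correction 21 of 49 members were above 0 untreated and 13 with decitabine, where 15 and 3 were above 0 without it. Loess normalization left -0.17 and -0.33, against -0.10 and -0.13. In the 15 members that kept 3 probes without a surrogate on any array the medians were 0.20 and -0.01, against 0.12 and 0.15 for all genes treated so. Without surrogates the decitabine median was thus near 0, though still -0.16 relative to all genes, and the untreated one was on the other side of 0. The part of the input signal, GC content and surrogates in the lower KO ratio was not tested further.

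Probes near the gene start differed most in untreated cells. Within 500 bases of the start (84 probes of 38 genes, median 23 CpGs in 500 bases) the untreated KO minus WT median was -0.41 with 62 of 84 probes below 0. It was -0.19 from 2000 to 500 bases upstream, -0.14 from 500 to 2000 downstream, -0.07 farther upstream and -0.08 farther downstream. Input medians ran the other way, 0.45 within 500 bases and 0.11 to 0.23 elsewhere. With decitabine the ratio medians were -0.48 near the start and -0.28 to -0.47 elsewhere. MeDIP was detected at none of the 84 start-site probes on either untreated array and at 4 on each decitabine array.

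**Figure D5:**
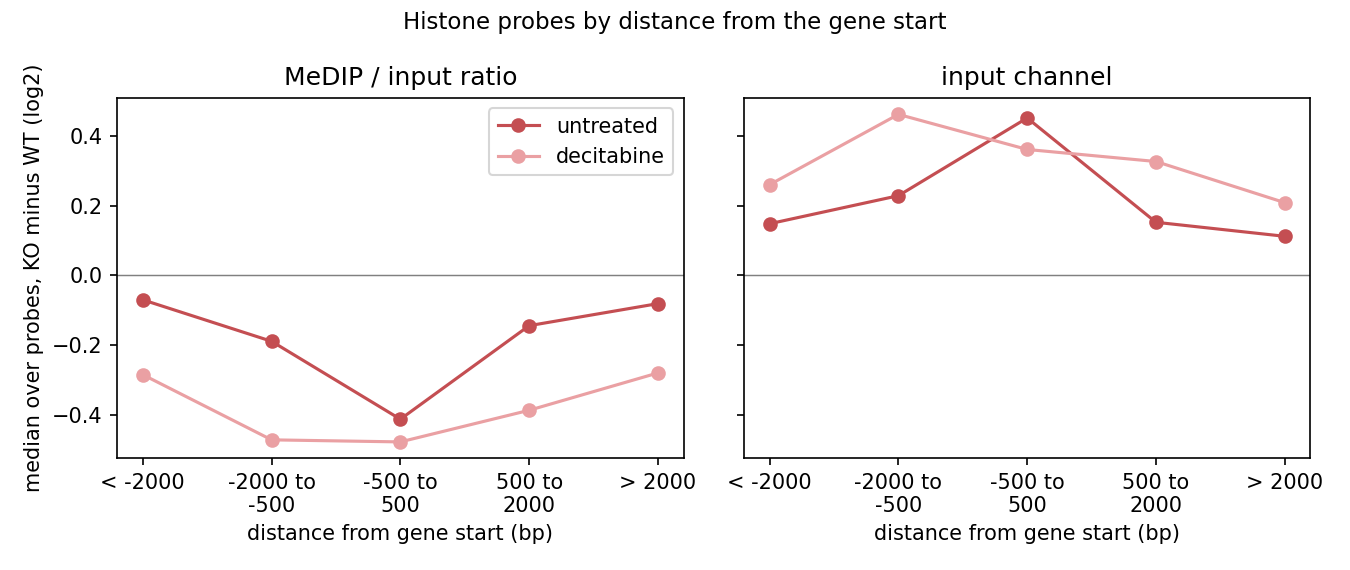
Median KO minus WT difference over histone probes (log2, vertical axis) by distance from the gene start in base pairs (horizontal axis), for the MeDIP/input ratio (left) and the input channel (right), untreated and with decitabine. The untreated ratio is lowest (-0.41) and the untreated input highest (0.45) within 500 bases of the start.

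By the 2-fold rule no histone gene was higher in KO cells, against 0.17% of all genes untreated and 0.276% with decitabine. Untreated, Hist1h3d and Hist2h2bb were lower (2 of 49, 4.08%), against 0.0704% of all genes, or 12 genes. With decitabine Hist1h2bh and Hist1h3d were lower (2 of 49), against 0.0352% of all genes, or 6 genes. Hist2h2bb was the lowest and Hist1h3d next to it among all 17034 genes untreated. With decitabine Hist1h3d was the lowest of all genes and Hist1h2bh the third. None of the 3 had a probe with MeDIP well above background on any array, so no fold is given. They rest on 3 (Hist1h3d), 5 (Hist2h2bb) and 4 (Hist1h2bh) probes. The shares over all genes are not matched for the number of probes.

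Hist1h3d encodes H3 and lies at chr13:23667632-23668880 on the forward strand. Its log2 ratios were 0.18 (SD over 3 probes 0.84) in WT untreated, -1.36 (0.56) in KO untreated, -0.13 (0.44) in WT decitabine and -1.49 (0.43) in KO decitabine cells. Both KO arrays were below both WT arrays. The KO minus WT difference was -1.54 (SD 0.28) untreated and -1.36 (SD 0.32) with decitabine, and all 3 probes were lower each time. Its median input signal was 334 and 205 on the WT arrays (untreated, decitabine) and 767 and 764 on the KO arrays, while its median MeDIP signal was 340 and 205 on WT and 314 and 196 on KO. Each of these MeDIP medians is a surrogate value. Surrogates stood at 2, 2, 3 and 2 of its 3 probes (untreated WT and KO, then decitabine WT and KO). The mean centred log2 input of the gene was higher by 1.71 and 1.60 in KO cells, and that of MeDIP by 0.13 and 0.31. The rise of MeDIP comes from 1 of the 3 probes, the first below, whose signal was 418 in WT and 510 in KO cells untreated and 215 and 435 with decitabine; the second was at 312 and 310, and at 204 and 196. The 2 probes upstream of the start read as follows, with CpG in capitals; the other lies in the coding exon.
Hist1h3d, chr13:23667013-23667072: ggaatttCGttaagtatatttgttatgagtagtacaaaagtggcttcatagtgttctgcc
Hist1h3d, chr13:23667525-23667584: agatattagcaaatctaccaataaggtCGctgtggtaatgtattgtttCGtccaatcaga
The second, centred at -77.5 bases from the start, holds 2 CCAAT boxes. Under loess normalization the differences were -0.17 and -0.76, and neither was counted. Under normexp background correction they were -1.01 and -0.74, and the second was not counted.

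Hist2h2bb, an H2B gene at chr3:96073644-96082924 on the forward strand, had log2 ratios of 0.53 (SD over 5 probes 0.20) in WT untreated, -1.23 (0.55) in KO untreated, 0.00 (0.50) in WT decitabine and -0.86 (0.70) in KO decitabine cells. Again the KO arrays were the lower ones, by -1.76 (SD 0.72) untreated and -0.86 (SD 0.42) with decitabine, with all 5 probes lower each time. Its median input signal was 231 and 178 on the WT arrays and 520 and 481 on the KO arrays, and MeDIP was 324 and 216 against 307 and 193. Each of these MeDIP medians is a surrogate value. Surrogates stood at 3, 4, 4 and 4 of its 5 probes (untreated WT and KO, then decitabine WT and KO). The mean centred log2 input of the gene was higher by 1.34 and 0.83 in KO cells (untreated, decitabine). That of MeDIP differed by -0.46 and 0.04. The probes without a surrogate in WT untreated cells had MeDIP signals of 675 and 769 there, against 322 and 316 in KO untreated cells. The probe with its octamer, printed above, had input signals of 203 and 178 on the WT arrays and 481 on each KO array. Under normexp the untreated difference was -0.42 and no longer counted.

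Hist1h2bh, an H2B gene at chr13:23634793-23635228 on the reverse strand, was at -0.29, -0.19, 0.44 and -0.62 over 4 probes (untreated WT and KO, then decitabine WT and KO). KO minus WT was 0.11 (SD 0.63) untreated and -1.06 (SD 0.51) with decitabine, where all 4 probes were lower. Here input was 0.51 higher and MeDIP -0.47 in KO cells. The difference was -0.18 under normexp, -0.72 under loess, -0.98 as the median over probes and -0.90 with GC correction, none of which met the 2-fold limit. Hist1h4f came next with decitabine at -0.92 (SD 0.60 over 7 probes). Hist1h1e (-0.87) and Hist1h4a (-0.79) followed Hist1h3d untreated.

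The largest positive KO minus WT differences untreated were those of Hist3h2bb (0.54), Hist2h2be (0.31), Hist1h1b (0.31) and Hist2h3c1 (0.29). With decitabine the top 4 were Hist1h1b (0.31), Hist3h2ba (0.16), Hist3h2bb (0.05) and Hist1h1a (-0.02), so the fourth was already below 0. All were within the SD over the gene's probes (0.39 to 1.18). The genes with a probe detected on all arrays, Hist1h3c (-0.02 and -0.21) and Hist1h3e (-0.19 and -0.43), were on the low side with small values. These are means over 9 and 18 probes, most of them not detected. The detected Hist1h3c probe itself differed by -0.64 untreated and 0.14 with decitabine. That of Hist1h3e was higher in KO cells, by 0.98 and 0.86.

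Genes that are not histones but lie inside the Hist1 span offer a local comparison. There were 35 such genes with at least 3 probes, most of them of a single gene family (names starting with V1rh or V1ri). The medians below therefore rest mainly on that family. The 35 genes had a median of 2.1 CpGs and 40.2% GC in 500 bases. Their KO minus WT medians were -0.11 untreated (10 of 35 above 0) and -0.17 with decitabine (7 of 35), between the histone genes and all genes with decitabine and close to the histone genes untreated. None met the 2-fold rule in any of the 4 comparisons. Their input was 0.15 and 0.08 higher in KO cells. Their median difference of decitabine minus untreated was -0.08 in WT and -0.14 in KO cells, where the histone medians were 0.15 and 0.07.

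Genes that serve the histone genes or replace their products lie in DNA of other base composition. The list of replacement variants, which are made outside S phase, had 11 of 13 genes measured. That of histone gene transcription and 3' end processing had 16 of 20, and that of histone chaperones 8 of 9. No gene of these lists met the 2-fold rule in any comparison. Their KO minus WT medians with decitabine were 0.18 (9 of 11 above 0), 0.07 (10 of 16) and 0.10 (5 of 8), and untreated 0.23, 0.03 and 0.08. Their median GC content was 53.0%, 49.3% and 51.0%, against 42.8% for the histone genes, and over all genes the KO minus WT ratio had r 0.57 (untreated) and 0.56 (decitabine) with GC content. With GC correction the list medians were 0.08, -0.02 and 0.04 with decitabine and 0.09, -0.07 and 0.00 untreated. The part of GC content in the gap between these lists and the histone genes was not tested further. Slbp, which encodes the stem-loop binding protein, was at -0.96, -1.12, -0.80 and -0.73 (untreated WT and KO, then decitabine WT and KO). Npat, the cyclin E-CDK2 substrate that activates histone transcription, was at -0.26, -0.64, -0.02 and 0.04. H2afx, the variant phosphorylated at DNA breaks, was at -0.47, -0.80, -0.48 and -0.38, and the H3.3 gene H3f3b at -0.23, -0.40, -0.21 and -0.12. In these 4 genes the KO array was below WT untreated (-0.16, -0.38, -0.33 and -0.17) and slightly above it with decitabine (0.07, 0.07, 0.10 and 0.09). The 4 were fixed by name, and their lists are described by these counts only.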

How the data were processed

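Histone members and gene lists were chosen with earlier results of these data known. The authors deposited the scanner output of 4 arrays, which Agilent Feature Extraction had read (10.5 in the submitters' processing notes, 10.5.1.1 in the headers). Deposited intensities are linear, and per the file headers the processed ones had been background-subtracted, detrended, given surrogates near background and dye-normalized. The deposited log10 ratio of Cy5 over Cy3 was used as an alternative, with its sign turned. The flags for background, surrogates and outlier spots are the scanner software's, as deposited. MeDIP and input DNA were both amplified across the whole genome before labelling, per the labels' protocols, which can change their relative amounts.

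From the processed signals, log2(MeDIP/input) was taken per spot, averaged per probe and centred on the median of all 520554 probes of an array, with no loess or quantile step. Input or MeDIP differences between arrays are log2 signals centred the same way. Probes were kept where input was well above background and no channel was an outlier spot on any array (328399 probes; 47.2% of histone and 63.1% of all named probes passed the input filter). A gene is the mean of at least 3 kept probes, and the SD over probes is not a replicate error. A gene was counted when it differed 2-fold or more and 80% or more of its probes went one way, which is no test; the counting was tested on simulated data. An "at least" fold sets an undetected MeDIP signal to the weakest detected one of its array, or to its own if higher. Coordinates are mm9, and the sequences of all 1072 histone probes matched it at their stated positions. Of the members, 48 of 49 were matched by name in GENCODE (not Hist3h2bb), and each of the 49 by 1 synonym in RefSeq, which gave 44 promoter windows. Named genes were the 5 highest and 5 lowest by mean level, the 4 largest differences each way per comparison, those counted, the Hist3, Hist4 and testis genes, Hist2h2bb, those with a probe detected on all arrays, and 4 related genes. Alternatives used limma 3.58.1 in R 4.3.3 (normexp with offset 50, loess) and the other settings given at the end; centring on kept probes, GC correction, near-identical probes left out, probes without surrogates and 1 signal limit on every array were added after seeing the data. The authors' series value table was not used here, since its row names match no probe column. Calculations used Python 3.11.15, pandas 2.3.3 and scipy 1.17.1.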

Additional observations from a re-analysis of the deposited data

Results flagged for a closer look

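In 10 of the named histone genes the decitabine arrays differed from the untreated arrays in opposite directions in WT and KO cells. With 1 array per group the differences between genotypes were not tested, and each value below is the decitabine difference in KO cells minus that in WT cells, on the log2 scale. Higher in WT and lower in KO cells with decitabine were Hist1h2bh (-1.17, from 0.73 in WT and -0.44 in KO), Hist1h4f (-1.01, from 0.67 in WT and -0.34 in KO), Hist1h3g (-0.76, from 0.76 in WT and -0.00 in KO), Hist2h2ab (-0.58, from 0.08 in WT and -0.49 in KO), Hist2h3c1 (-0.41, from 0.37 in WT and -0.04 in KO), Hist2h2be (-0.40, from 0.35 in WT and -0.05 in KO) and Hist1h3c (-0.19, from 0.15 in WT and -0.05 in KO). Lower in WT and higher in KO cells were Hist2h2bb (0.90, from -0.52 in WT and 0.38 in KO), Hist1h4a (0.39, from -0.23 in WT and 0.16 in KO) and Hist1h4m (0.19, from -0.00 in WT and 0.19 in KO). Of these genes only Hist1h3c had a probe with MeDIP well above background on all 4 arrays. The opposite signs depended on the processing: each of the 10 genes had the same sign in both genotypes under at least 1 other setting. Under normexp these were Hist1h2bh, Hist1h3c, Hist1h3g, Hist1h4m and Hist2h2bb, and with arrays centred on bright probes Hist1h3c, Hist1h4a, Hist1h4m, Hist2h2ab, Hist2h2bb, Hist2h2be and Hist2h3c1. Hist1h4f had the same sign only with the median over probes. Several of the values are also at or near 0 in 1 genotype.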

How the results depend on the processing

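No paired analysis was possible because each group has 1 array, and slide as a block and leaving out a replicate were not possible for the same reason. Depth is limited by MeDIP signal over background, which 437 of 496 histone probes did not clear. Of the recomputed median levels, median differences, counts and shares, 234 stayed within the SD over genes, the counting interval or 1.5 times. These include turns of sign, given with the results for KO minus WT untreated, the testis genes and decitabine under loess. The decitabine medians also turned when centred on kept probes (-0.0077 in WT and -0.0473 in KO cells), and in KO cells with the median over probes (-0.0128) and without the input filter (-0.0563), and the WT decitabine level turned with GC correction (0.16) and with probes bright on at least 1 array (0.15). The other 58 follow, with levels in the order untreated WT and KO, decitabine WT and KO, and the count over all genes after each count that is not 0. The cause was not tested except where the setting itself changes the probes, genes or limits used. With 1 signal limit on every array, chosen after seeing the data, MeDIP was detected at 3.83% of histone probes on each decitabine array. Under normexp the KO untreated level was -0.11, and 1 gene was lower in KO untreated (1 of all genes) and 0 in KO decitabine. With the deposited scanner log ratio the decitabine difference in KO cells was -0.23 (all genes -0.09). Centred on bright probes, the levels were 0.15, 0.00 (-0.0021) and, for KO decitabine, -0.85. The decitabine differences were then -0.46 in WT and -0.80 in KO cells, with 2 (329) and 14 (2119) genes lower, and 6 (82) genes were lower in KO with decitabine. Under loess the levels were 0.36, 0.20, 0.38 and 0.0935, and the counts of lower genes were 1 (27) for decitabine in WT, 1 (11) for decitabine in KO, 1 (30) for KO untreated and 0 for KO with decitabine (16 of all genes). Without the input filter (56 genes) the levels were 0.57, 0.21, 0.68 and 0.16, and 7 (13) genes were lower in KO with decitabine. With only probes bright on at least 1 array (6 genes), most pass through the decitabine arrays, so a higher value there is built in. The decitabine differences were then 1.10 and 0.89 (all genes 1.18 and 1.16) with 3 (5454) and 2 (6088) genes higher, KO minus WT was 0.13 with decitabine (all genes 0.36), the KO decitabine level was 0.55, 1 (774) gene was higher in KO untreated and 0 genes were lower in KO cells (35 and 17 of all genes). At 5 probes per gene (46 genes) 1 (8) gene was lower in KO untreated and 0 with decitabine (1 of all genes). At 1.5-fold, 3 genes were higher with decitabine in WT cells (601 of all genes, 3.53%), and 7 were lower in KO cells in each treatment (159 untreated and 164 with decitabine). Centred on kept probes the levels were 0.30, 0.0939, 0.40 and -0.0064. With GC correction the KO levels were -0.13 and -0.0608, and 1 (4) gene was lower in KO with decitabine. Without surrogates (15 genes) the decitabine differences were 0.54 and 0.59 (all genes 0.62 and 0.66) with 1 (2054) and 2 (1997) genes higher, KO minus WT with decitabine was -0.0129 (all genes 0.15), 0 genes were lower in KO cells (70 and 29 of all genes), and the levels were 0.0140, 0.19 and 0.18 on the KO untreated and both decitabine arrays. The testis difference had no value with probes bright on at least 1 array or without surrogates. Outlier spots, probes at 1 place and near-identical probes changed no count.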
